A study of Mus musculus with 2 samples.

Results

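Probes named by an Ensembl transcript identifier (ENSMUST) or by the accession of a cDNA clone sequence (AK followed by digits) were examined on 2 mouse expression arrays. They were chosen by the systematic name printed with each non-control probe on both arrays. That rule uses no measured value, but it was set with earlier results of these data known. They numbered 5711 of 55664 probes, of which 3214 carried an Ensembl name and 2497 a clone name, for 3068 and 2457 different names. The cells were lineage-negative, Sca-1+ and c-Kit+ (LSK) haematopoietic stem and progenitor cells, sorted by flow cytometry. The bone marrow group came from mice 8 weeks old and the fetal liver group from embryos at E14.5. Both were wild type and not transplanted, and for strain the bone marrow label gives C57BL/6 while the fetal liver label used here gives none. Each group had 1 single-colour array made from 20 ng of total RNA. The samples set fetal against adult stem and progenitor cells, and the organ and the age change together. Without replicates, the differences below lack a replicate check and carry no p-value.

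An Ensembl transcript identifier marks a gene model from a genome annotation, which can be an mRNA, a pseudogene, a noncoding RNA or an alternative transcript of a known gene. An AK accession marks a sequenced cDNA clone, and most such mouse entries come from large full-length cDNA collections made from many tissues. Array designers add such probes to reach transcripts outside the curated RefSeq set, and the labelling kit used here primes from poly(A) tails. The array files pair these names with no symbol, description, position or sequence. The reference gene table (assembly GRCm38.p6) matched 0 of the 5525 names, so members are given by their identifiers and their function is not stated.

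LSK cells hold the blood stem cells and multipotent progenitors, and the probes of both sorting markers were above background on both arrays. Signals and sums in this paragraph are not scaled between the arrays, while folds are, as described below. Kit gave 4074 (bone marrow) and 3063 (fetal liver), which is a 1.00-fold difference after scaling. Ly6a, which encodes Sca-1, gave 3846 and 594, and was 4.85-fold higher in bone marrow after scaling. Of 5 neutrophil markers 4 were at least 2-fold brighter in bone marrow, with summed signals of 4435 and 1309. Of 5 erythroid markers 3 were brighter by that much in fetal liver, with sums of 17743 and 102761. Hepatocyte markers summed to 1562 and 507, mostly from Afp (1540 and 483), which was 2.39-fold higher in bone marrow. Serpina1a, also detected on both arrays, was 1.68-fold higher in fetal liver, and Alb, Ttr and Apoa1 were not well above background on either. B cell markers summed to 4045 and 3996, of which Cd79b alone was above background. T and NK cell markers summed to 934 and 976, mostly from Cd3e (838 and 898). The 4 macrophage markers on the array summed to 4988 and 4569, mostly from Csf1r (4928 and 4529). The part of these cells in the results below was not tested. In bulk RNA, fewer cells of a type and less RNA per cell cannot be told apart.

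Fewer members were detected than probes for RefSeq mRNAs. A probe was counted as detected when Feature Extraction marked it well above background. In bone marrow 1302 Ensembl probes were detected, a share of 40.5% (95% exact binomial interval 38.8 to 42.2), and in fetal liver 1227, a share of 38.2% (36.5 to 39.9). Clone probes were detected less often than Ensembl probes on each array, with 909 in bone marrow (36.4%, interval 34.5 to 38.3) and 867 in fetal liver (34.7%, 32.9 to 36.6). For comparison, RefSeq mRNA probes had shares of 62.3% and 61.4%, RefSeq noncoding RNA probes 37.7% and 37.0%, and probes of chromosome regions 28.1% and 27.2%. The intervals cover counting over probes only. No test between arrays or classes was possible with 1 array a group.

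**Figure D1:**
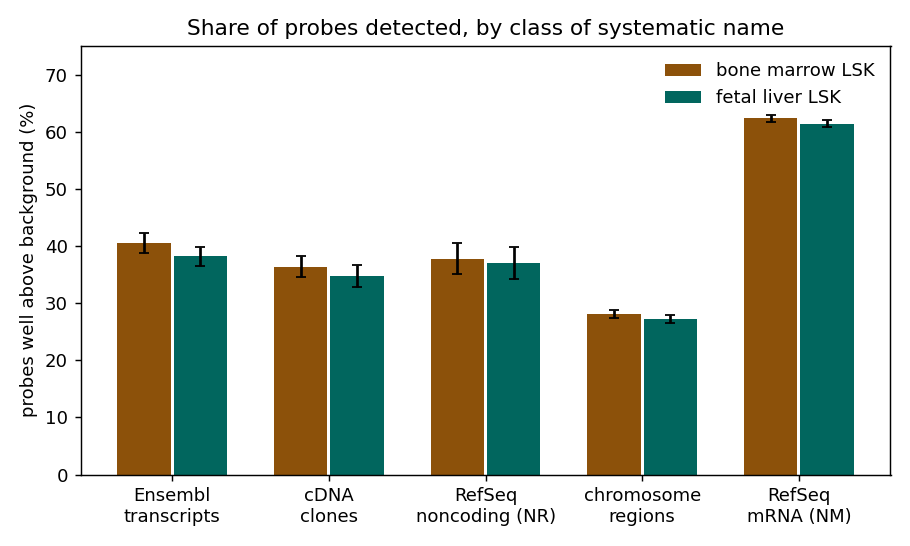
Share of probes well above background (%) on the bone marrow (brown) and fetal liver (green) array, for each class of systematic name, with 95% exact binomial intervals over probes as error bars. Ensembl probes stand at 40.5% and 38.2% and clone probes at 36.4% and 34.7%, near the RefSeq noncoding class and below the RefSeq mRNA class at 62.3% and 61.4%.

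Detection on a single array leaned to bone marrow. Among Ensembl probes, 1151 were above background on both arrays, 151 on the bone marrow array alone and 76 on the fetal liver array alone. Bone marrow thus held 66.5% of the Ensembl probes seen on a single array. Among clone probes, 795 were detected on both arrays, 114 in bone marrow alone and 72 in fetal liver alone, so that bone marrow held 61.3%. Over all probes on the array that share was 58.6%. A further 1836 Ensembl probes and 1516 clone probes were above background on neither array.

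The classes also differed in how their signals were spread. Ensembl probes ranged widely, with median processed signals of 6.57 (bone marrow) and 4.58 (fetal liver) and a 95th percentile of 11806 and 10187. Clone probes had medians of 4.49 and 3.88 and a 95th percentile of only 392 and 292. Ensembl probes accounted for 9.38% of all probe signal in bone marrow and 9.48% in fetal liver, and clone probes for 0.914% and 0.907%. Of the 557 brightest probes, the top 1% of each array, 61 in bone marrow and 57 in fetal liver were Ensembl probes, which is 1.90% and 1.77% of that class. Clone probes supplied 4 and 5 of them, or 0.160% and 0.200% of their class. A probe's brightness depends on its sequence as well as on its target, so these values describe the probes and rank no transcript against another.

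Differences are given on the log2 scale as the fetal liver value minus the bone marrow value, with each processed signal divided first by the 75th percentile of its array, which was 178.9 for bone marrow and 134.0 for fetal liver. Each ± gives the error that Feature Extraction estimates for the pair of signals, which is technical. Where a probe was not well above background on the dim array, the dim value was raised to the lowest detected signal of that array if it lay under it (12.4 in bone marrow, 9.82 in fetal liver), and the result is written as at least N-fold. Probes detected on at least 1 array entered the comparison. These were 1378 Ensembl and 981 clone probes, and 4 of each class gave no fold because their bound fell under 1-fold.

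Most members that entered the comparison had similar values in both cell populations. The median difference was 0.03 for Ensembl probes (interquartile range -0.35 to 0.38) and 0.06 for clone probes (-0.36 to 0.48), beside 0.10 for all probes. Within 2-fold lay 1182 of the 1374 Ensembl probes with a fold and 846 of the 977 clone probes, with bounds counted at their bound. Over all probes 24050 of 27680 did so, so this was true of most probes on the array. A bound is a lower limit, so probes with a bound under 2-fold may differ by more. Of the 1151 Ensembl probes detected on both arrays, 65 passed 2-fold towards fetal liver and 62 towards bone marrow. Of the 795 such clone probes, 48 and 39 did so. Over all 24441 probes detected on both arrays, 1247 (5.10%) and 1414 (5.79%) did so. Ensembl probes detected on both arrays correlated with Pearson's r of 0.984 and Spearman's rho of 0.954, and clone probes with 0.964 and 0.908. For all probes detected on both arrays the values were 0.975 and 0.964. These are correlations across probes that share 2 arrays, and probes are not independent replicates.

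**Figure D2:**
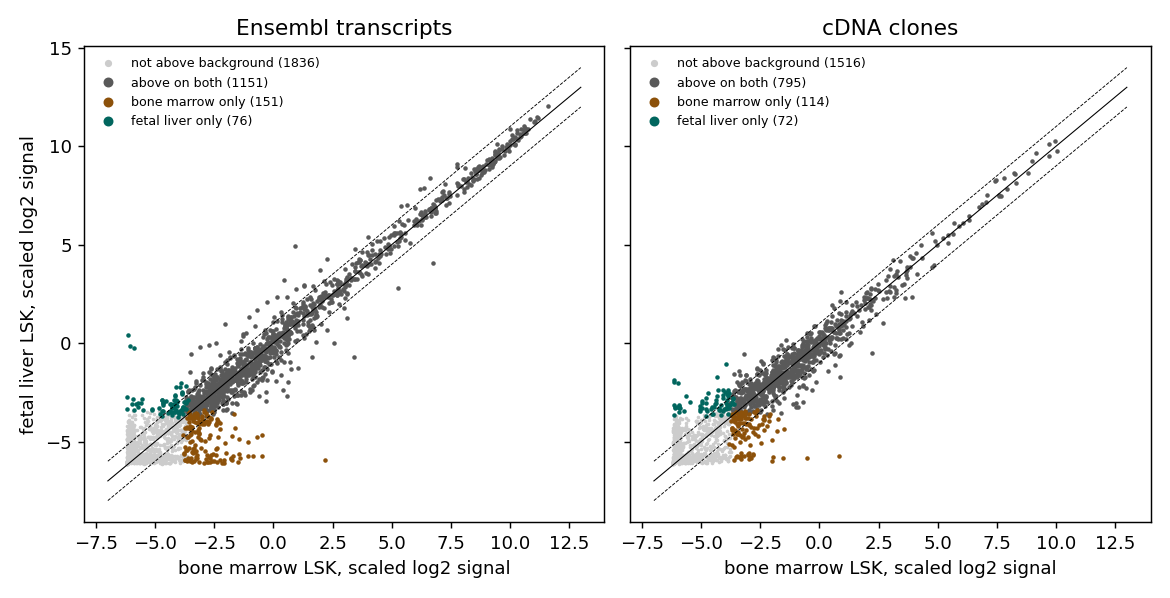
Scaled log2 signal in fetal liver LSK cells (vertical) against bone marrow LSK cells (horizontal) for every Ensembl (left) and clone (right) probe, coloured by the array on which it was above background. The solid line marks equal values and the dashed lines 2-fold differences. Ensembl probes reach much brighter signals than most clone probes, and probes seen on a single array are more often those of bone marrow (151 against 76, and 114 against 72).

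Towards fetal liver, 80 Ensembl probes (5.81%) and 66 clone probes (6.73%) passed 2-fold, beside 5.97% of all 27742 probes that entered. Towards bone marrow, 112 Ensembl probes (8.13%) and 65 clone probes (6.63%) did so, beside 7.12% of all. The members' shares lay near the background of the array in each direction. Bounds made up 15 of the 80 and 50 of the 112 Ensembl probes, and 18 of the 66 and 26 of the 65 clone probes. Differences of at least 4-fold were found for 16 Ensembl and 4 clone probes higher in fetal liver, beside 1.16% of all probes, and for 29 and 12 higher in bone marrow, beside 1.97%.

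**Figure D3:**
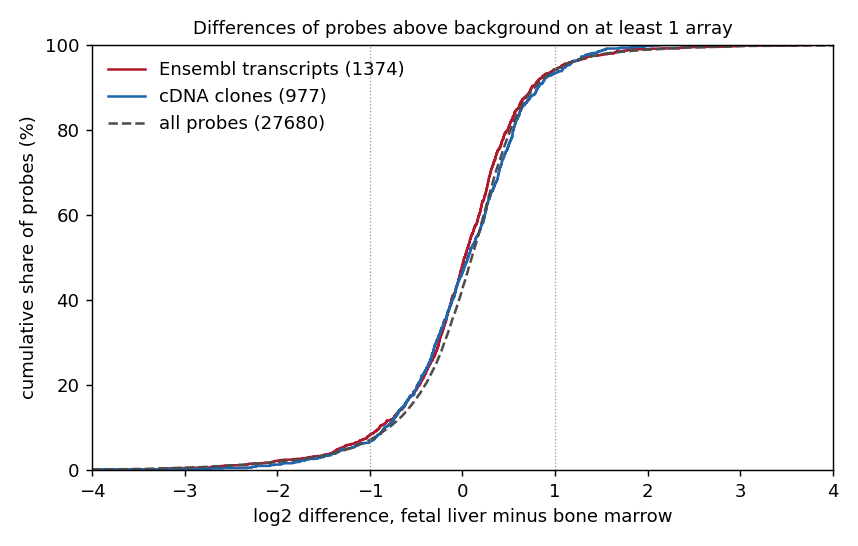
Cumulative share of probes (%) by log2 difference, fetal liver minus bone marrow, for Ensembl probes (red, 1374), clone probes (blue, 977) and all probes (dashed, 27680), with dotted lines at 2-fold. The 3 curves run close together, with medians of 0.03, 0.06 and 0.10. The axis stops at 4 on each side, so the few larger differences are not drawn.

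The balance of directions depended on the scaling of the arrays. Of the members past 2-fold, fetal liver held 41.7% for Ensembl and 50.4% for clone probes, beside 45.6% for all probes. With spike-in controls as the scale, 0.34 away from the percentile on the log2 scale, these shares were 18.5% and 14.6%, beside 19.3% for all probes, so the move was that of the whole array. Ensembl probes past 2-fold then numbered 44 towards fetal liver and 194 towards bone marrow, and clone probes 24 and 140. With normexp background correction the shares of fetal liver were 62.7% and 30.4%, beside 39.1% for all probes, from 37 and 22 Ensembl probes and 7 and 16 clone probes. Of the 37, 8 lay in the run from ENSMUST00000082039 to ENSMUST00000082421 and 7 in that from ENSMUST00000099000 to ENSMUST00000099992. Both runs are described below and held 0 of the 22. Among probes detected on both arrays, 65 Ensembl probes passed 2-fold towards fetal liver and 62 towards bone marrow, so that fetal liver held 51.2%, beside 46.9% for all probes.

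Calls were also counted by brightness. In the dimmest of 3 equal groups of all probes by mean signal, 75 of 619 Ensembl probes (12.1%) passed 2-fold towards bone marrow and 36 (5.82%) towards fetal liver. All bounds of the members lie in this group, from probes that entered through the array where they are high. Without bounds, 25 of its 396 Ensembl probes (6.31%) passed 2-fold towards bone marrow and 21 (5.30%) towards fetal liver. Over all probes without bounds, 371 of 6001 (6.18%) and 411 (6.85%) did so. The brightest group, which holds no bounds, had 4 of 341 (1.17%) towards bone marrow and 17 (4.99%) towards fetal liver. Of these 17, 8 lie in the run from ENSMUST00000082039 to ENSMUST00000082421, described below, which had 0 towards bone marrow. Over all probes, with bounds counted, the dimmest group had 10.02% and 8.81%, and the brightest 3.92% and 2.98%. Clone probes were mostly dim, with 539 in the dimmest group, where 41 (7.61%) passed 2-fold towards bone marrow and 47 (8.72%) towards fetal liver, or 15 and 29 of 357 without bounds. Of the 101 clone probes in the brightest group, 3 did so towards bone marrow and 1 towards fetal liver.

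ENSMUST00000103410 gave 811 in bone marrow and 2.21 in fetal liver, which is not well above background, a difference of at least 61.9-fold. ENSMUST00000140371 was detected on both arrays, at 1910 and 81.9, a difference of -4.13 ± 0.21 or 17.5-fold. These were the brightest of the 7 probes that led their class towards bone marrow, and the leading probes of the other 5 names had bone marrow signals from 98.98 to 267.

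ENSMUST00000096862 was 9.56-fold higher in bone marrow (-3.26 ± 0.27), from signals of 267 and 20.9. ENSMUST00000050386 had 127 and 5.19 by the probe that gave the larger difference, at least 9.66-fold. Its other probe was above background on both arrays, at 369 and 55.1, and gave 5.03-fold (-2.33 ± 0.21). Both probes of this transcript were thus higher in bone marrow.

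ENSMUST00000103420 had 126 and 2.49, at least 9.64-fold, but its other probe, at 7.88 and 2.58, was detected on neither array. ENSMUST00000107629 followed with 110 and 4.97, at least 8.35-fold. ENSMUST00000051236 had 98.98 and 2.49, at least 7.55-fold. In 5 of these 7 cases the fetal liver signal was not well above background, so the size of the difference is known only as a bound.

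On the fetal liver side, ENSMUST00000168688 stood out by its brightness, with 4141 in fetal liver and 337 in bone marrow, a 16.4-fold difference (4.04 ± 0.20). ENSMUST00000077110 differed by at least 19.1-fold, from 177 in fetal liver and 2.52 in bone marrow. ENSMUST00000107162, at 123 and 2.69, differed by at least 13.3-fold. For the last pair the bone marrow signal lay near the negative control spots, whose median was 2.70.

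ENSMUST00000121077 had 111 in fetal liver and 3.00 in bone marrow, at least 12.0-fold. ENSMUST00000071972 was measured on both arrays at 259 and 43.7, which is 7.90-fold (2.98 ± 0.22). ENSMUST00000072014 had 92.4 and 16.0, or 7.73-fold (2.95 ± 0.32). ENSMUST00000108587 had 117 and 20.8, or 7.51-fold (2.91 ± 0.29). The last 3 were dim in bone marrow, and their technical errors were correspondingly larger than that of ENSMUST00000168688.

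**Figure D4:**
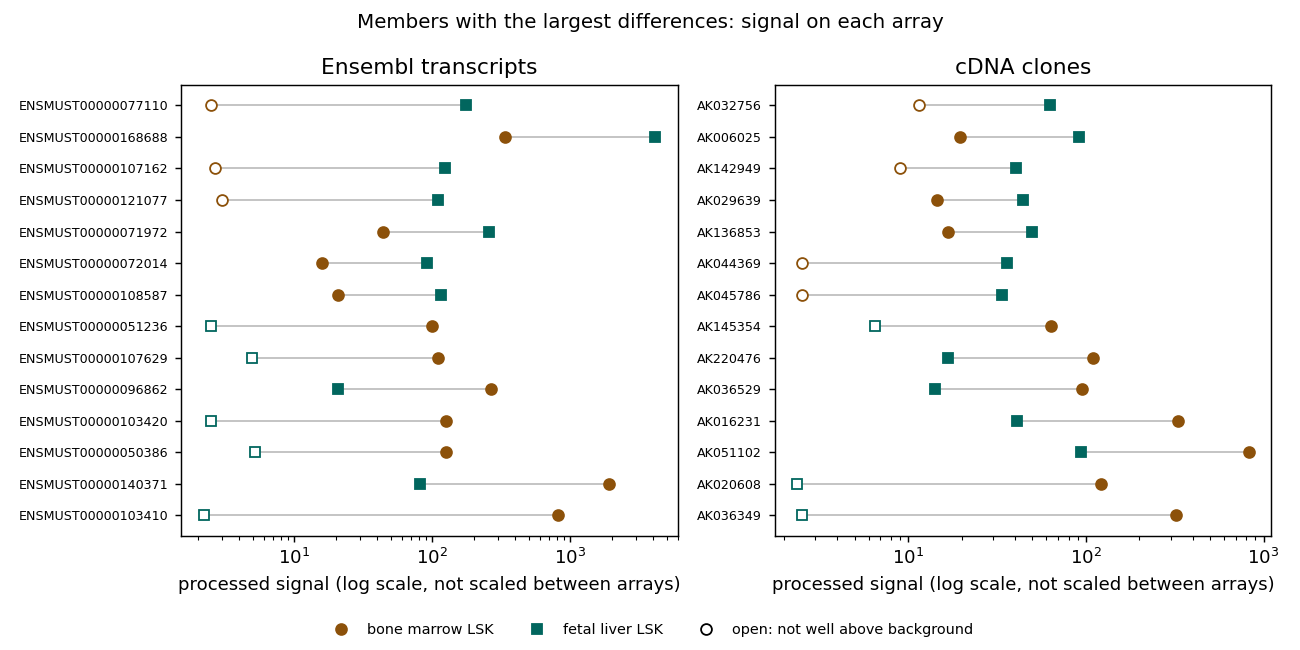
Processed signal (log axis, not scaled between arrays) in bone marrow (circles) and fetal liver (squares) for the 7 Ensembl names (left) and 7 clone names (right) with the largest differences in each direction. Open symbols were not well above background. The widest gap is that of ENSMUST00000103410, 811 in bone marrow against 2.21 in fetal liver.

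Among clone transcripts, the leading values towards bone marrow came from dim and moderate signals. AK036349 gave 320.4 in bone marrow and 2.52 in fetal liver, at least 24.4-fold. AK020608 had 122 and 2.38, at least 9.34-fold. AK051102 was the brightest of these clones, at 828 and 94.1, a 6.59-fold difference (-2.72 ± 0.21). All 3 were higher in bone marrow.

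AK016231 was also measured on both arrays, at 331 and 41.0, which is 6.04-fold (-2.60 ± 0.22). AK036529 had 95.5 and 14.3, or 5.02-fold (-2.33 ± 0.32). AK220476 had 109 and 16.9, or 4.84-fold (-2.28 ± 0.28). AK145354 was dim in fetal liver, at 63.5 and 6.48, a difference of at least 4.84-fold.

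The 7 clones that led towards fetal liver were dim, with fetal liver signals from 33.8 to 91.7. AK032756 had 63.1 in fetal liver and 11.6 in bone marrow, at least 6.82-fold. AK006025 was the brightest, at 91.7 and 19.7, or 6.21-fold (2.63 ± 0.28). AK142949 had 40.6 and 8.998, at least 4.39-fold. For AK032756 and AK142949 the bone marrow signal lay not far under the lowest detected one.

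AK029639 had 44.6 and 14.47, or 4.11-fold (2.04 ± 0.36), and AK136853 had 49.7 and 16.8, or 3.95-fold (1.98 ± 0.34). AK044369, at 36.1 and 2.54, differed by at least 3.89-fold and AK045786, at 33.8 and 2.54, by at least 3.65-fold. The errors of the measured pairs exceeded the median of 0.22 over clone probes detected on both arrays. For AK044369 and AK045786, which were not detected in bone marrow, the error of the unbounded difference was 1.46 each. Their bone marrow signals lay near the negative control median of 2.70. The bone marrow signals of AK029639 and AK136853 lay close to the lowest detected one, 12.4.

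Normexp background correction, which compresses dim signals, gave smaller values for all 28 of these leading differences. Among the Ensembl names, ENSMUST00000103410 was then at -3.37, ENSMUST00000140371 at -3.56 and ENSMUST00000168688 at 3.72, while ENSMUST00000107629 (-0.77) and ENSMUST00000051236 (-0.81) fell short of 2-fold. Among the clones, AK036349 was at -2.19, AK051102 at -2.31, AK016231 at -1.59 and AK020608 at -1.18, and the other 3 towards bone marrow fell short. Towards fetal liver AK006025 (1.16) and AK032756 (1.06) stayed past 2-fold, and the other 5 clones lay between 0.64 and 0.85.

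The brightest members differed little. ENSMUST00000081342 had 565222 (bone marrow) and 563770 (fetal liver), or 0.41 ± 0.20. ENSMUST00000138502 had 404409 and 385909 (0.35 ± 0.20), and ENSMUST00000164001 had 421603 and 365386 (0.21 ± 0.20). Among clones, AK146165 had 180882 and 167894 (0.31 ± 0.20), AK146304 had 191182 and 115984 (-0.30 ± 0.20) and AK016943 had 147924 and 149166 (0.43 ± 0.20). All 6 lay within 2-fold.

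Several probes for the same transcript mostly gave similar differences. Of 49 Ensembl names with at least 2 probes in the comparison, 44 had probes within 2-fold of each other and 40 had probes of the same sign, with a median range of 0.21. All 8 such clone names had probes within 2-fold and of the same sign. In these counts a bound stands at its limit, and its sign is fixed by the array on which the probe was detected. For AK020480, whose probes gave only bounds, the unbounded differences were -2.26 and -1.08. No name of either class had probes past 2-fold in opposite directions. Probes of a name can overlap in sequence, so they are not independent measurements.

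Among names whose probes all passed 2-fold in the same direction, which are given because of that, ENSMUST00000051301 had 4 probes. Their bone marrow signals ran from 112 to 271 and their fetal liver signals from 33.5 to 36.5, with differences of -1.32, -1.39, -2.04 and -2.60. ENSMUST00000099683 had 2 probes, at 148 and 352 in bone marrow and 563 and 912 in fetal liver, which were 5.09-fold and 3.46-fold higher in fetal liver. ENSMUST00000099050 likewise had 199.9 and 438 in bone marrow and 670 and 1045 in fetal liver, at 4.47-fold and 3.19-fold. The clone AK043445 was higher in fetal liver by both probes, at 2.11-fold and at least 2.28-fold.

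The names whose probes disagreed most were ENSMUST00000094754 and ENSMUST00000093911. The first had a pair of bright probes at 65800 and 58753 in bone marrow, with differences of 0.23 and 0.26, and a dim probe at 119 and 21.2 with a difference of -2.07. The second had probes at 0.29 and 1.68, from bone marrow signals of 16.6 and 37.0. Among clones the widest ranges were those of AK014157, at -0.99 and -0.52, and AK020480, with bounds of at least 1.79-fold and 1.43-fold towards bone marrow.

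Technical precision within an array could be read from members printed as many spots. ENSMUST00000077662 had a mean of 6964 over 10 bone marrow spots (SD 242, a coefficient of variation of 3.48%) and 922 over 10 fetal liver spots (SD 31.8, 3.45%), and was 5.66-fold higher in bone marrow. ENSMUST00000103426 had 1048 (SD 37.6) and 133 (SD 10.5) over 10 spots each, or 5.92-fold higher in bone marrow. For both, the spots of the arrays did not overlap.

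Dimmer members repeated less closely. ENSMUST00000049389 had 22.9 in bone marrow (SD 3.76) and 36.7 in fetal liver (SD 4.71) over 10 spots each, and was 2.14-fold higher in fetal liver after scaling. The clone AK053689 had 23.7 (SD 3.88) and 33.2 (SD 5.41), or 1.86-fold. AK018620 had 20.4 (SD 3.23) over 10 spots and 15.3 (SD 2.26) over 8, a difference of 0.00 ± 0.35. These spreads are technical and say nothing of the variation between animals.

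The number in the identifier is a further property of every member. Each class was divided into 5 equal groups by that number. The share of Ensembl probes detected on at least 1 array was highest in the second group (53.2%) and lowest in the last (37.6%). The third group, numbers 100795 to 111322, had the lowest median difference, -0.18, and the widest spread, an SD of 1.00. For clones the detected share was lowest in the first group (33.0%) and highest in the last (44.6%), while the median differences lay between 0.02 and 0.08.

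Members with neighbouring Ensembl numbers differed together in a few runs, which were singled out after the values were seen and are described with no test. Numbers were divided into blocks of 1000, and the 21 Ensembl blocks with at least 15 probes in the comparison had medians from -0.53 to 1.20. For the 17 such clone blocks they ranged from -0.26 to 0.56. The lowest Ensembl block ran from ENSMUST00000103112 to ENSMUST00000103751 and the highest from ENSMUST00000082039 to ENSMUST00000082421.

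**Figure D5:**
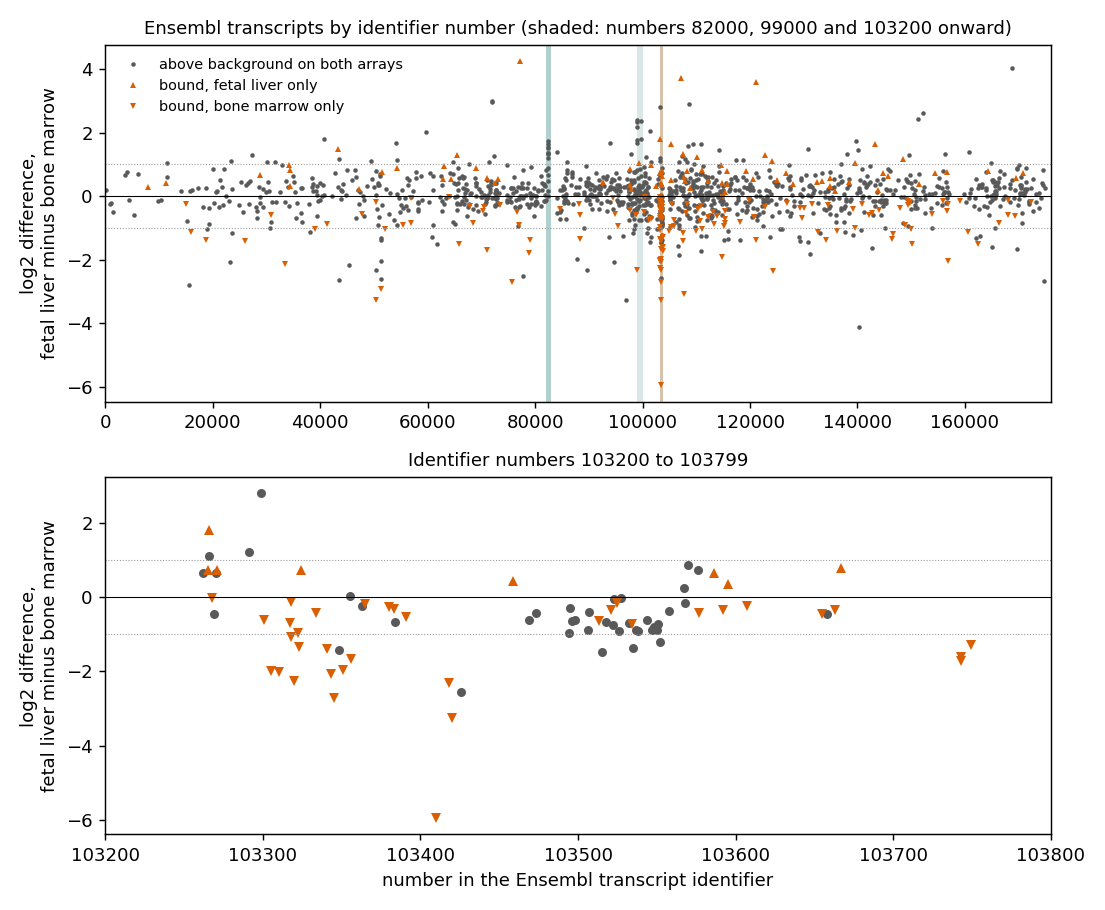
Log2 difference, fetal liver minus bone marrow, against the number in the Ensembl transcript identifier, for all Ensembl probes in the comparison (top) and for the run from ENSMUST00000103262 to ENSMUST00000103751 (bottom). Circles were above background on both arrays and triangles are bounds. Most probes of the lower panel lie below 0 (67 of 84), while the stretch at its left end lies mostly above 0 (8 of 10).

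The run from ENSMUST00000103262 to ENSMUST00000103751 held 274 probes for 255 names. Of these, 85 entered the comparison, 36 detected in bone marrow alone and 8 in fetal liver alone. The median difference was -0.62, with 67 negative and 17 positive values. Past 2-fold were 21 probes towards bone marrow and 4 towards fetal liver. These are 24.7% and 4.71% of the 85, beside 7.12% and 5.97% over all probes. Of the 21, 16 are bounds, from probes that entered only through bone marrow. Over the 41 probes detected on both arrays the median was also -0.62, with 5 past 2-fold towards bone marrow and 3 towards fetal liver. Of all probes detected on both arrays, 5.79% and 5.10% were past 2-fold in these directions.

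The median of the run was negative under the 5 other scalings and corrections tried, from -0.95 with the spike-in controls to -0.20 with normexp. With normexp only 3 of its probes passed 2-fold towards bone marrow and 2 towards fetal liver. The median thus kept its sign across these settings, and the count past 2-fold was not stable. The sign is partly built in, because the detection flags were the same in each setting. Of the 85 probes, 36 were detected in bone marrow alone and 8 in fetal liver alone, which fixes their direction. The median over probes detected on both arrays was taken with the main scaling only.

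The run was not uniform. Its first stretch, ENSMUST00000103262 to ENSMUST00000103299, went the other way, with 8 of 10 positive and a median of 0.73, and 5 of 6 positive among those detected on both arrays. It was led by ENSMUST00000103299, at 242 in bone marrow and 1258 in fetal liver, or 6.95-fold. The stretch from ENSMUST00000103300 to ENSMUST00000103399 had 22 of 24 negative and a median of -0.83, but 19 of the 24 entered through bone marrow alone, which fixes their direction. The 4 detected on both arrays had differences from -1.43 to 0.03. The bone marrow signals of these 24 reached only 85.8, with a median of 32.4.

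The stretch from ENSMUST00000103401 to ENSMUST00000103498 had 10 of 11 negative and a median of -0.64. Of the 11, 4 passed 2-fold towards bone marrow, beside 7.12% of all probes. All 7 of its probes detected on both arrays were negative, and 1 passed 2-fold, beside 5.79% of all such probes towards bone marrow. It holds ENSMUST00000103410, ENSMUST00000103420 and ENSMUST00000103426, described above. The stretch from ENSMUST00000103500 to ENSMUST00000103598 had 26 of 31 negative and the same median of -0.64, from median signals of 72.1 (bone marrow) and 37.7 (fetal liver). Of its 23 probes above background on both arrays 20 were negative, with a median of -0.73. Past 2-fold towards bone marrow were 3, beside the same 5.79%.

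In the rest of the Ensembl class, 76 of 1293 probes passed 2-fold towards fetal liver and 91 towards bone marrow, and the median was 0.05. These shares, 5.88% and 7.04%, lay near the 5.97% and 7.12% of all probes. Detection on a single array then counted 115 probes in bone marrow and 68 in fetal liver, against 151 and 76 with the run. Detection in the run was 28.1% in bone marrow and 17.9% in fetal liver, and in the rest of the class 41.7% and 40.1%.

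The run from ENSMUST00000082039 to ENSMUST00000082421 was bright and higher in fetal liver. Of its 15 probes in the comparison, all detected on both arrays, 14 had positive differences, with a median of 1.20. Past 2-fold were 8, all towards fetal liver, beside 5.97% of all probes in that direction. Median signals were 13170 in bone marrow and 30487 in fetal liver. With spike-in scaling the median was 0.86, 12 were positive and 6 passed 2-fold.

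Within this run ENSMUST00000082408 was the furthest, at 17699 in bone marrow and 44444 in fetal liver (3.35-fold, 1.75 ± 0.20). ENSMUST00000082414, at 13170 and 30487, was 3.09-fold higher (1.63 ± 0.20), and ENSMUST00000082407, at 7631 and 16880, was 2.95-fold higher. The brightest pair, ENSMUST00000082402 and ENSMUST00000082405, differed less, by 0.49 and 0.89.

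A smaller group lay between ENSMUST00000099000 and ENSMUST00000099992. Of 28 probes in the comparison 22 were positive, and 8 passed 2-fold, all towards fetal liver, beside the same 5.97%. The median was 0.33, and -0.01 with spike-in scaling, where 7 passed 2-fold towards fetal liver and 2 towards bone marrow. The 8 probes belong to 6 names, of which ENSMUST00000099360 had only a bound, at least 2.04-fold.

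ENSMUST00000099035 was the furthest of them, at 87.1 in bone marrow and 340 in fetal liver (2.38 ± 0.21). ENSMUST00000099046 had 112 and 425 (2.35 ± 0.21), and ENSMUST00000099042 had 265 and 679 (1.78 ± 0.20). The others were ENSMUST00000099050 and ENSMUST00000099683, both with a pair of probes and described above. Probes of near-identical transcripts can share signal, and whether these do was not tested.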

How the data were processed

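Expression was measured in 2 samples with 1 array each. The deposited intensity of each spot is, per the file headers, the processed signal of Agilent Feature Extraction 10.7.1.1, after background subtraction and spatial detrending and without scaling between arrays. Its flags of 0 or 1 for each spot were used as deposited. The authors' deposited series table holds a linear ratio per probe. Set against the scanner values of members printed as 1 spot, it equalled the processed signal divided by 178.6 in bone marrow and 133.9 in fetal liver, within 0.1% for 100% of them, so it was not logged and genes were not centred. Its column medians were 0.0589 and 0.0604, and its direction is that of signal.

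Control spots and outlier spots (137 and 122, of which 6 and 5 belonged to members) were left out, spots of a probe were averaged, and a probe counted as detected when at least 50% of its spots were well above background. No spot was saturated. Analysis used Python 3.11.15, pandas 2.3.3 and scipy 1.17.1, and limma 3.58.1 for normexp. The counting was tested on simulated arrays. Members, gene lists and rules were chosen with earlier results of these data known. Named members were, in each class and direction, the 7 with the largest difference, then the 3 brightest and the 2 whose probes differed most. The planned normexp on mean signals used median signals, since the files give those. Grouping by description and by neighbouring named genes was planned but not run, because the files used here carry neither descriptions nor positions. The number of arrays limits the precision.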

Additional observations from a re-analysis of the deposited data

How the results depend on the processing

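No paired analysis was possible because each group has 1 array, and for the same reason no replicate could be left out. Leaving out members with a symbol was not run, because the table named none. Spike-in scaling moved the median difference to -0.32 for Ensembl and -0.28 for clone probes (all probes -0.24). It put 44 Ensembl and 24 clone probes past 2-fold towards fetal liver and 194 and 140 towards bone marrow, against 828 and 3452 of all probes. Normexp put 37 and 7 past 2-fold towards fetal liver and 22 and 16 towards bone marrow, against 549 and 854 of all probes. Requiring detection on both arrays left 62 Ensembl and 39 clone probes towards bone marrow, and 1414 of all. With no filter on dim probes the counts were 237 and 226 towards fetal liver and 274 and 175 towards bone marrow, and 4392 and 3902 for all probes. The looser flag of a positive and significant signal marked 62.2% (bone marrow) and 59.3% (fetal liver) of Ensembl and 56.5% and 57.0% of clone probes, so the order of the arrays turned for clones. Percentile scaling over detected probes, quantile normalization, the authors' table and 1 probe per name kept each count within 1.5 times, as did leaving out either Ensembl run, ENSMUST00000103262 to ENSMUST00000103751 or ENSMUST00000082039 to ENSMUST00000082421, an alternative chosen after the data were seen. The median turned negative under percentile scaling over detected probes (-0.06 for Ensembl, -0.02 for clone probes) and, for Ensembl probes, under quantile normalization (-0.03). Of the 30 named probes past 2-fold, 18 remained so under normexp and all 30 under spike-in, percentile and quantile scaling and in the authors' table, and none changed direction. These probes were chosen for large differences, the smallest being 1.68. Spike-in scaling shifted every difference by 0.34, and percentile scaling and the authors' table moved these probes by less. None of the 30 could therefore fall short of 2-fold in those 3 settings. The direction of a bound follows the detection flags, which were the same in each setting.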
